A study of Mus musculus with 30 samples.

Results

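Transcript levels of 10 genes of the hypoxia-inducible factor (HIF) pathway were followed in AML12 hepatocytes with and without the forkhead factors FoxK1 and FoxK2, before and after insulin. The genes were taken by name, through their Ensembl gene identifiers, from the 49089 genes counted: the HIF subunits Hif1a, Epas1 and Arnt, the HIF prolyl hydroxylases Egln1 and Egln3, and the hypoxia-type target genes Vegfa, Bnip3, Ankrd37, Ndrg1 and Adm. Of these, 9 were among the 11368 genes with enough counts to be tested, and Adm, with 104 counts over all 30 libraries, was not.

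AML12 is an immortalised hepatocyte line from the liver of a mouse carrying a human TGF-alpha transgene. Cells received siRNA against FoxK1 (FoxK1 KD), FoxK2 (FoxK2 KD) or both (DKD), or a non-silencing siRNA (Control), so the knockdowns were transient and partial. All cells were deprived of serum overnight and then either mock treated without insulin (basal) or exposed to 100 nM insulin for 6 h. The labels give the basal samples as 0 h, while the study describes vehicle for the same 6 h. RNA sequencing gave 4 libraries in each group, except 3 for Control insulin and 3 for DKD insulin, and since the labels do not say whether the numbered replicates were separate cultures, p-values measure only the spread between these libraries.

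HIF is a pair of an oxygen-regulated alpha subunit, HIF-1 alpha (Hif1a) or HIF-2 alpha (Epas1), and the constantly present partner ARNT. With oxygen, prolyl hydroxylases such as PHD2 (Egln1) and PHD3 (Egln3) mark the alpha subunit for degradation through VHL, so that most control lies in the protein, which was not measured here. In the liver and elsewhere HIF drives genes of angiogenesis, glycolysis and mitophagy, and insulin and mTOR signalling are also known to raise HIF-1 alpha protein in normal oxygen.

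Levels are CPM, counts per 1000000 counted reads with library sizes scaled by the trimmed mean of M values, and differences are log2 fold changes with their standard error (SE). A gene was called changed at an adjusted p below 0.05 over all tested genes (edgeR quasi-likelihood test). Total counts per library ran from 2141460 to 5668270 with a median of 3662235.5. The knockdowns were visible in the targeted genes: Foxk1 was 81.4 CPM ± 10.4 (SD, n = 4) in Control basal, 36.8 ± 6.43 in FoxK1 KD basal and 46.5 ± 3.43 in DKD basal, and Foxk2 was 140.2 ± 8.25, 47.3 ± 3.46 in FoxK2 KD basal and 50.2 ± 5.69 in DKD basal. Insulin itself lowered Foxk1 in Control cells, to 53.0 ± 4.46 CPM (n = 3, log2 fold change -0.62, SE 0.13, adjusted p = 3.7e-04). The hepatocyte factor Hnf4a was present at 89.6 to 152 CPM and the hepatocyte product Alb at 2.50 to 65.2 CPM, while Krt19, a cholangiocyte marker, stood at 323 to 753 CPM and Epcam at 0. Of the 4 cholangiocyte markers, 3 were tested, and their summed group mean ran from 565 CPM in FoxK1 KD basal to 837 CPM in Control basal. That of the 6 hepatocyte markers, 5 of them tested, ran from 177 CPM in Control basal to 226 CPM in DKD insulin, and none of the 4 endothelial, 4 macrophage or 4 stellate cell markers had enough counts to be tested. The part of these shifts in the results was not tested, and in bulk RNA fewer cells of a type and less RNA per cell cannot be told apart.

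Libraries differed both between and within groups. The 12 basal libraries of Control, FoxK1 KD and FoxK2 KD, which make up whole groups, stood apart from the other 18. In every one of the 12, 52 genes were lower and 83 genes higher than in any of the 18. None of the HIF genes was among them. No other division of the groups was counted for comparison, and the cause of this one was not tested. The insulin effects in Control, FoxK1 KD and FoxK2 KD and the DKD difference at basal cross this division, whereas the insulin effect in DKD, the single knockdowns at basal and all knockdown comparisons after insulin lie within it. The DKD minus Control difference in insulin effect also crosses it, through Control basal alone. Any shift between the sets enters that difference and cannot be told apart from it. In the FoxK1 KD and FoxK2 KD differences the basal groups compared are all among the 12. Control basal replicate 1 lay furthest from its group, with a root mean square log2 deviation of 0.364 against 0.253 for the next library, and the HIF gene calls at basal and in Control that change without it are given both ways.

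Of 4 genes chosen as examples, Hif1a and Bnip3 changed with knockdown of both FoxK factors, and Egln3 and Vegfa with insulin. The sequences just upstream of these genes are shown, and whether the sequences play a part in the changes was not tested. They are the bases before the RefSeq transcript start in GRCm38.p6, on the gene's own strand, at chr12:73907617-73907866 (plus strand), chr12:54203875-54204124, chr7:138909520-138909756 and chr17:46032378-46032627 (minus strand). The Hif1a stretch lies inside the longer gene model of GENCODE, and the Bnip3 stretch was shortened to 237 bases to stay outside annotated exons. Capitals mark matches on either strand to ACGTG or GCGTG, the core letters of the HIF response element.
Hif1a: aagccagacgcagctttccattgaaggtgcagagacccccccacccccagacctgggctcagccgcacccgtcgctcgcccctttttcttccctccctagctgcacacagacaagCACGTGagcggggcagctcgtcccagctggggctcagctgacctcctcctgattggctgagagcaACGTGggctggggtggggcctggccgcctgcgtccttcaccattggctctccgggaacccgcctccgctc
Egln3: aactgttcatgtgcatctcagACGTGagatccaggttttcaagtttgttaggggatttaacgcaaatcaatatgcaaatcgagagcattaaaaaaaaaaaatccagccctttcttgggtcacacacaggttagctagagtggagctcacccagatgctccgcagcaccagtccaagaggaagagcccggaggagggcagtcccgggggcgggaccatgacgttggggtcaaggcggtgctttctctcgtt
Bnip3: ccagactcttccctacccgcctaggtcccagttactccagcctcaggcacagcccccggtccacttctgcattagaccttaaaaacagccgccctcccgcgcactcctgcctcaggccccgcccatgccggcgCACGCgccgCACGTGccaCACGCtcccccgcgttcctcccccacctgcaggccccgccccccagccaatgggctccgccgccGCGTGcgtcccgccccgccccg
Vegfa: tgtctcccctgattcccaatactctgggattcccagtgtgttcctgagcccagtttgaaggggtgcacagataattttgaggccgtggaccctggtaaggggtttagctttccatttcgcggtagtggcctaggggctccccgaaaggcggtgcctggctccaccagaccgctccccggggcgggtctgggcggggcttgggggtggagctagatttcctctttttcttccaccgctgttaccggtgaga

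Hif1a held 3 matches to ACGTG, of which 2 overlap on opposite strands, and Bnip3 held 2 overlapping matches to ACGTG and 3 to GCGTG. Egln3 held 1 match, 229 bases before the start, and Vegfa held none in this window. A second Vegfa window in the table, not shown because 218 of its 250 bases lie in exons, held 1 match to each core. With the first window of each gene, 7 of the 8 HIF genes with a window in the table held at least 1 of the cores, beside 38.6% of all 32851 windows of 250 bases (16.6% for ACGTG and 28.2% for GCGTG). The GC content of the 8 windows ran from 50.8% (Egln3) to 86.0% (Egln1). All windows were counted without matching for GC content, so these shares cannot separate HIF cores from base composition. The forkhead letters GTAAACA and ATAAACA were in 0 of the 8 windows, beside 7.1% of all windows for either. The FoxK motif that the study proposes also allows a T in place of the C, and those forms were not searched. With only 8 windows and so low a share, the count of 0 cannot show that these genes lack the motif. The HIF core and forkhead counts are letter matches and not measured binding. Epas1 and Ndrg1 were not analysed here for sequence.

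In the basal state Hif1a, the main hypoxia-regulated subunit (ENSMUSG00000021109.13, GRCm38 chr12:73901375-73947530, plus strand), was lower in DKD cells than in Control cells. Its level was 169.5, 233, 222 and 242 CPM in the Control libraries, and 146, 173, 158 and 183 CPM in the DKD libraries. The DKD values lie below 3 of the 4 Control values, and the groups overlap through Control basal replicate 1. The log2 fold change was -0.39 (SE 0.10, adjusted p = 0.00413), and it was -0.50 without that library. With offsets for GC content and gene length it was -0.21 (adjusted p = 0.0433), a smaller difference still past the threshold. Neither single knockdown passed the threshold, with 219.7 to 258 CPM in FoxK1 KD and 220.0 to 261 CPM in FoxK2 KD, log2 fold changes of 0.10 each (adjusted p = 0.559 and 0.746), and 95% intervals from -0.10 to 0.30 in both.

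Insulin raised Hif1a in DKD cells. The level after insulin was 211, 262 and 209 CPM in DKD, 231, 221 and 241 CPM in Control, 211, 230.3, 238 and 193 CPM in FoxK1 KD, and 233, 274, 231 and 266 CPM in FoxK2 KD. All 3 DKD libraries with insulin lie above the 4 without, while the insulin and basal libraries of the other genotypes overlap. The insulin effect was 0.45 in DKD (SE 0.11, adjusted p = 0.00272), 0.09 in Control (adjusted p = 0.568), -0.10 in FoxK1 KD and 0.11 in FoxK2 KD. Without DKD insulin replicate 2 the DKD effect was 0.34 with an adjusted p of 0.0514. The FoxK2 KD effect was 0.19 (adjusted p = 0.0381) with GC and length offsets. The difference between the insulin effects of DKD and Control was 0.36 (SE 0.15, 95% interval 0.05 to 0.67) and was not past the threshold (adjusted p = 0.229), although it was 0.46 with an adjusted p of 0.0468 without Control basal replicate 1, and 0.21 (adjusted p = 0.382) with GC and length offsets. After insulin, the DKD and Control libraries overlapped, with a log2 fold change of -0.03 (SE 0.11, 95% interval -0.26 to 0.20, adjusted p = 0.955). The lower basal level and the insulin effect in DKD both rest on the same DKD basal libraries, so they are not independent results. The gene shares 330 exon bases with Gm15283 on the opposite strand, which had 18 counts in all.

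**Figure D1:**
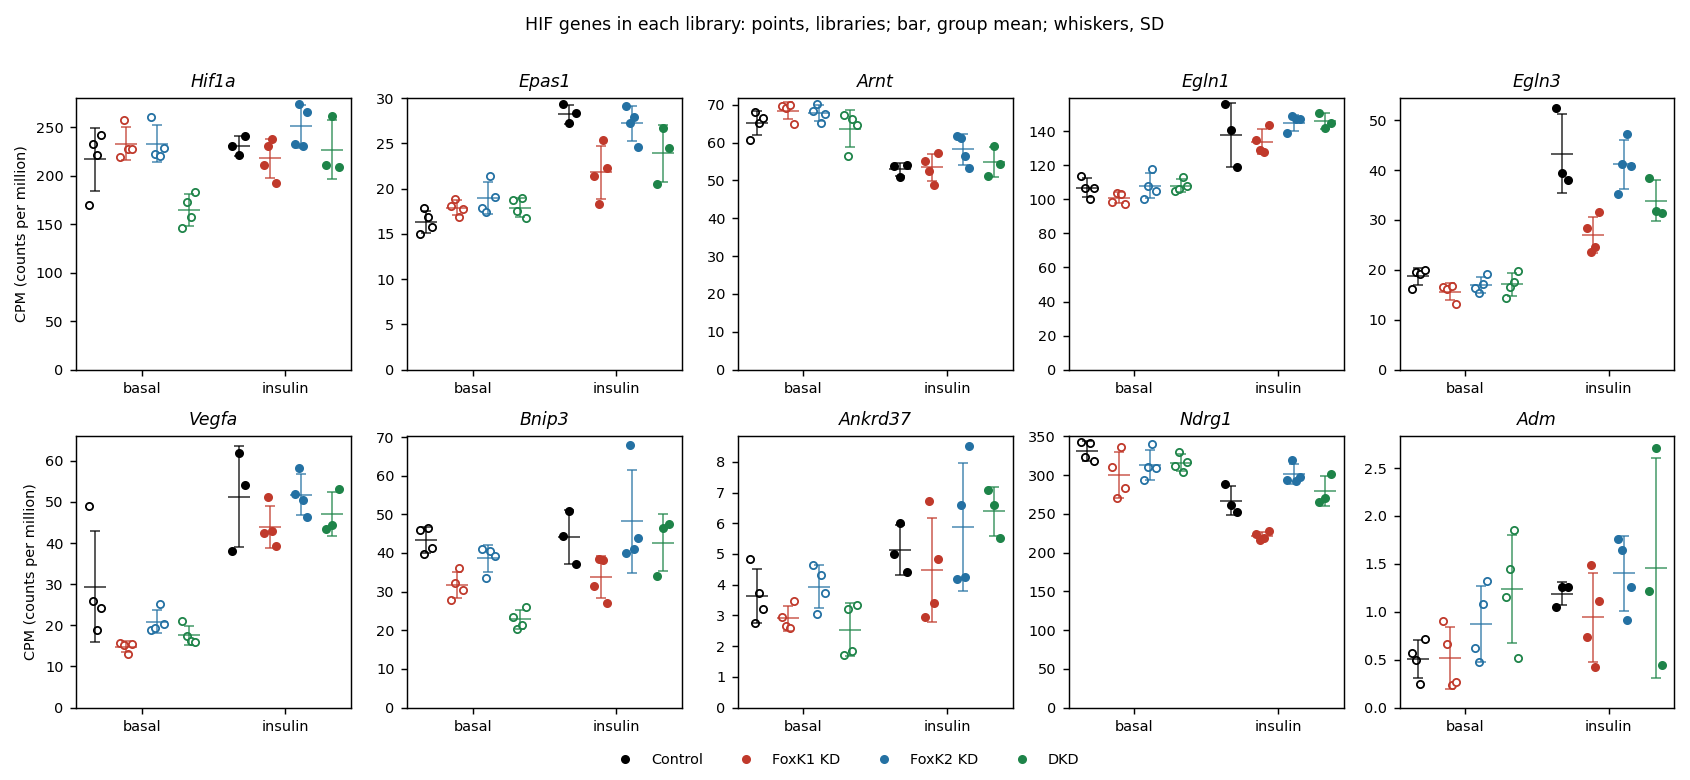
CPM of the 10 HIF genes in each of the 30 libraries, basal (open points) and insulin (filled points), coloured by genotype, with the group mean and SD (n = 3 or 4). Bnip3 is lower in the DKD basal libraries (20.4 to 25.9 CPM) than in any other library, Hif1a has its lowest group mean there (146 to 183 CPM, overlapping Control basal replicate 1), and Egln3 is at least 23.5 CPM in every insulin library and at most 20.0 CPM in every basal one.

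Epas1, which encodes HIF-2 alpha (ENSMUSG00000024140.9, chr17:86753700-86833410, plus strand), rose with insulin in 3 of the 4 genotypes. Its level was 15.0 to 17.8 CPM in Control basal and 29.3, 27.2 and 28.3 CPM in Control insulin. These groups do not overlap, and the log2 fold change was 0.79 (SE 0.12, adjusted p = 6.2e-06). It was 0.52 in FoxK2 KD (SE 0.11, adjusted p = 4.6e-04) and 0.41 in DKD (SE 0.12, adjusted p = 0.0223). The DKD call was lost without DKD basal replicate 2 (0.40, adjusted p = 0.0533) or 4 (0.37, 0.0614), or without DKD insulin replicate 2 (0.34, 0.118) or 3 (0.38, 0.0938), and also with DESeq2 (0.40, 0.0632) and with every gene of at least 1 count kept (0.41, 0.140). In FoxK1 KD the level after insulin was 21.4, 18.3, 25.4 and 22.3 CPM, and the effect of 0.29 (SE 0.12) had an adjusted p of 0.0750, or 0.36 with an adjusted p of 0.0449 without FoxK1 KD insulin replicate 2. The difference between the FoxK1 KD and Control effects was -0.50 (SE 0.17, 95% interval -0.86 to -0.15, adjusted p = 0.224). No knockdown changed Epas1 past the threshold at basal, where the log2 fold changes were 0.13 to 0.22. After insulin, FoxK1 KD lay below Control without overlap (-0.38, SE 0.12), but not past the threshold (adjusted p = 0.0841). With GC and length offsets that comparison passed (-0.42, adjusted p = 0.0373). DKD insulin also lay below Control insulin without overlap (-0.25, SE 0.13, adjusted p = 0.392), and FoxK2 KD was at -0.05 (adjusted p = 0.993).

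Arnt, the shared partner subunit (ENSMUSG00000015522.18, chr3:95434388-95497240, plus strand), fell with insulin in Control, FoxK1 KD and FoxK2 KD cells. The level was 60.7 to 68.0 CPM in Control basal and 50.9 to 54.1 CPM in Control insulin, without overlap. The log2 fold changes were -0.30 in Control (SE 0.09, adjusted p = 0.00950), -0.36 in FoxK1 KD (SE 0.08, adjusted p = 0.00114) and -0.21 in FoxK2 KD (SE 0.08, adjusted p = 0.0375). In DKD, Arnt was 63.6 CPM ± 4.90 before (n = 4) and 54.9 ± 4.02 after insulin (n = 3), a log2 fold change of -0.22 with an adjusted p of 0.0892 that was -0.27 and 0.0457 without DKD basal replicate 2. The Control call was lost without Control insulin replicate 2 (-0.26, adjusted p = 0.0613), with every gene of at least 1 count kept (-0.32, 0.0738) and in a fit of only the groups compared (-0.29, 0.131). The FoxK2 KD call was lost without FoxK2 KD basal replicate 1, 2 or 4 or FoxK2 KD insulin replicate 3 or 4, where the log2 fold change ran from -0.22 to -0.18 and the adjusted p from 0.0563 to 0.125. It was also lost with DESeq2 (-0.21, adjusted p = 0.0561), with every gene of at least 1 count kept (-0.23, 0.187), with only the groups compared (-0.21, 0.0606) and with GC and length offsets and a replicate block together (-0.20, 0.0507). The 3 knockdowns left Arnt within 0.07 of Control on the log2 scale at basal, none past the threshold.

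Both prolyl hydroxylase genes rose with insulin in every genotype. Egln3, which encodes PHD3, itself a HIF target (ENSMUSG00000035105.5, chr12:54178981-54203860, minus strand), was 16.2, 19.5, 19.1 and 20.0 CPM in Control basal and 52.5, 39.5 and 38.0 CPM in Control insulin. It was 13.1 to 16.7 CPM in FoxK1 KD basal and 28.4, 23.5, 24.6 and 31.5 CPM in FoxK1 KD insulin. In each of the 4 genotypes every insulin library lies above every basal library. The log2 fold change was 1.21 in Control (SE 0.13, adjusted p = 2.7e-08), 0.79 in FoxK1 KD (SE 0.14, adjusted p = 7.2e-05), 1.27 in FoxK2 KD (SE 0.13, adjusted p = 2.7e-09) and 0.99 in DKD (SE 0.14, adjusted p = 6.8e-06). After insulin, Egln3 was lower in FoxK1 KD than in Control without overlap (log2 fold change -0.69, SE 0.14, adjusted p = 0.00236), but without Control insulin replicate 1, the highest library, the difference was -0.52 with an adjusted p of 0.0551. The difference in insulin effect between FoxK1 KD and Control was -0.42 (SE 0.20, 95% interval -0.83 to -0.01, adjusted p = 0.350), which was not past the threshold. DKD insulin libraries held 38.5, 31.7 and 31.4 CPM, a log2 fold change of -0.36 from Control insulin (SE 0.14, adjusted p = 0.228).

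Egln1, which encodes PHD2, the main oxygen sensor of the pathway (ENSMUSG00000031987.6, chr8:124908587-124949324, minus strand), rose in each genotype. It was 107 CPM ± 5.50 in Control basal (n = 4) and 138 ± 18.7 in Control insulin (n = 3), 101 ± 3.18 and 134 ± 7.45 in FoxK1 KD, 108 ± 7.26 and 145 ± 4.56 in FoxK2 KD, and 108 ± 3.72 and 146 ± 4.65 in DKD. The log2 fold changes were 0.37, 0.41, 0.43 and 0.43 in that order, with adjusted p from 4.0e-05 to 6.5e-04. The FoxK1 KD effect was 0.21 (adjusted p = 0.0321) with GC and length offsets, and the Control call was lost with only the groups compared (0.38, adjusted p = 0.0636). In the main fit no difference in insulin effect exceeded 0.06, and the 95% intervals of the 3 differences from Control lie between -0.19 and 0.30. With GC and length offsets the differences were -0.13 for FoxK1 KD, -0.04 for FoxK2 KD and 0.15 for DKD. None of them passed the threshold (adjusted p = 0.672, 0.982 and 0.609). No knockdown comparison of Egln1 passed the threshold at basal or after insulin.

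Vegfa, the angiogenic growth factor and a classical HIF target (ENSMUSG00000023951.16, chr17:46016993-46032369, minus strand), rose with insulin in every genotype and was lower at basal in FoxK1 KD and DKD cells. At basal it was 49.1, 25.8, 18.9 and 24.1 CPM in Control, 15.6, 15.2, 12.9 and 15.5 CPM in FoxK1 KD, 18.8, 19.3, 25.1 and 20.2 CPM in FoxK2 KD, and 21.0, 17.5, 16.2 and 15.9 CPM in DKD. The highest Control value, replicate 1, is above every other basal library, and without it Control and FoxK1 KD still do not overlap. The log2 fold change from Control was -0.97 in FoxK1 KD (SE 0.20, adjusted p = 0.00201) and -0.71 in DKD (SE 0.20, adjusted p = 0.00926), while FoxK2 KD was at -0.46 (SE 0.19, adjusted p = 0.306). Without Control basal replicate 1 these became -0.63 (adjusted p = 0.0156), -0.38 (adjusted p = 0.0715) and -0.13 (adjusted p = 0.873), so the DKD call rests on that library. With only the groups compared, neither call passed (-0.97 and -0.72, adjusted p = 0.0997 and 0.0745).

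After insulin Vegfa was 38.0, 61.9 and 54.1 CPM in Control, 42.5, 51.1, 42.8 and 39.3 CPM in FoxK1 KD, 51.8, 58.3, 50.4 and 46.3 CPM in FoxK2 KD, and 43.4, 44.5 and 53.1 CPM in DKD. The 4 genotypes overlap, and none differed from Control past the threshold (log2 fold changes -0.22, 0.02 and -0.11). The insulin effect was 0.82 in Control (SE 0.18, adjusted p = 0.00106), 1.57 in FoxK1 KD (SE 0.20, adjusted p = 2.2e-07), 1.30 in FoxK2 KD (SE 0.18, adjusted p = 8.9e-07) and 1.41 in DKD (SE 0.20, adjusted p = 4.8e-06). The Control effect was 1.15 without Control basal replicate 1, and 0.82 with an adjusted p of 0.0736 with only the groups compared. The larger effect in FoxK1 KD exceeded that of Control by 0.75 (SE 0.27, adjusted p = 0.254), or by 0.41 (adjusted p = 0.547) without that library. It passed the threshold with every gene of at least 1 count kept (0.74, adjusted p = 0.0359). The differences were 0.49 for FoxK2 KD and 0.60 for DKD (adjusted p = 0.887 and 0.304).

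Bnip3, a mitophagy receptor of the outer mitochondrial membrane and a HIF-1 target (ENSMUSG00000078566.8, chr7:138890836-138909519, minus strand), was lower in DKD cells at basal and rose with insulin in DKD cells. At basal it was 45.9, 39.8, 46.4 and 41.2 CPM in Control, 27.8, 32.3, 36.0 and 30.5 CPM in FoxK1 KD, 41.1, 33.4, 40.6 and 39.3 CPM in FoxK2 KD, and 23.5, 20.4, 21.3 and 25.9 CPM in DKD. DKD lies below every library of the other genotypes, and FoxK1 KD lies below every Control library. The log2 fold change was -0.91 in DKD (SE 0.15, adjusted p = 6.0e-05), between -0.99 and -0.78 with an adjusted p of at most 7.8e-04 in all 16 alternatives. In FoxK1 KD it was -0.45 (SE 0.14, adjusted p = 0.0436), and this call was lost without Control basal replicate 1 or 3 or FoxK1 KD basal replicate 1, 2 or 4, where it ran from -0.45 to -0.39 with adjusted p from 0.0903 to 0.125. In FoxK2 KD it was -0.16 (SE 0.14, adjusted p = 0.699).

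With insulin Bnip3 was 34.1, 46.4 and 47.5 CPM in DKD, 44.3, 50.9 and 37.1 CPM in Control, 31.4, 38.5, 38.1 and 27.1 CPM in FoxK1 KD and 40.1, 67.9, 41.0 and 43.8 CPM in FoxK2 KD. All DKD insulin libraries lie above all DKD basal ones, while the Control groups overlap. The insulin effect was 0.89 in DKD (SE 0.16, adjusted p = 2.0e-04), 0.03 in Control (SE 0.15, adjusted p = 0.916), 0.09 in FoxK1 KD (adjusted p = 0.696) and 0.32 in FoxK2 KD (adjusted p = 0.0819). The FoxK2 KD effect was 0.41 (adjusted p = 0.0413) without FoxK2 KD insulin replicate 1, 0.39 (0.0264) with GC and length offsets, and 0.11 (0.585) without FoxK2 KD insulin replicate 2, the highest library. The difference of 0.86 between the DKD and Control effects (SE 0.22, 95% interval 0.40 to 1.33) passed the threshold (adjusted p = 0.0405). It was at least 0.71 in all 22 alternatives but passed in 10 of them. It was lost without Control basal replicate 3 or 4, DKD basal replicate 1, 2 or 3, Control insulin replicate 1 or 3, or DKD insulin replicate 2 or 3, with adjusted p from 0.0514 to 0.124, with GC and length offsets (0.72, adjusted p = 0.0922, or 0.71 and 0.105 with a replicate block too), and with only the groups compared (0.86, adjusted p = 0.0801). After insulin the DKD difference from Control was -0.05 (SE 0.16, 95% interval -0.39 to 0.29, adjusted p = 0.943). The lower basal level, the DKD insulin effect and its difference from Control all rest on the same DKD basal libraries, so they are not independent results. The lower basal level and the difference in insulin effect also cross the division of the libraries given above, and cannot be told apart from it.

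**Figure D2:**
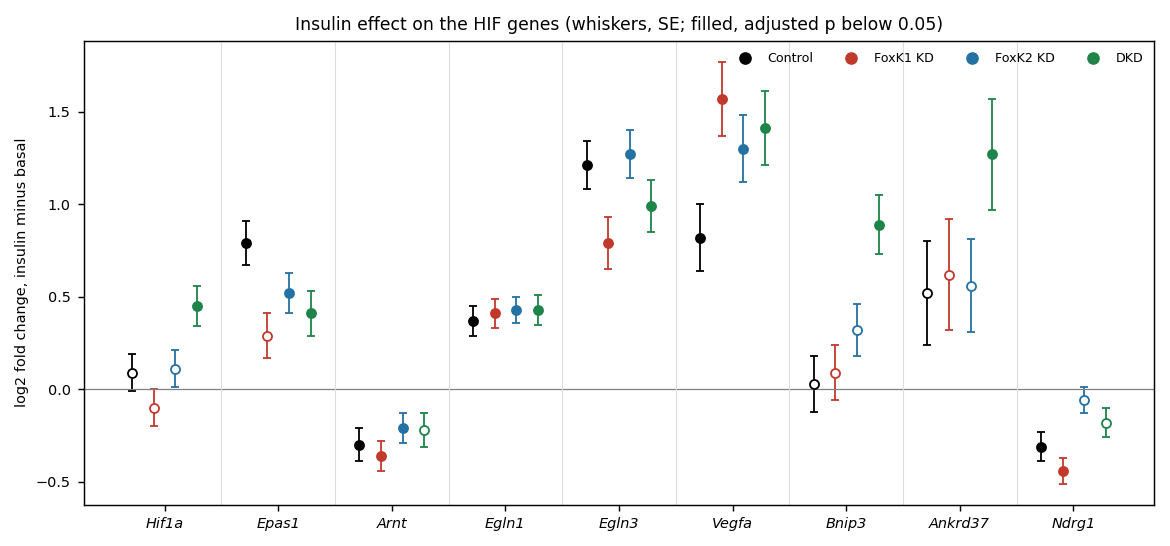
Log2 fold change (insulin minus basal) ± SE of the 9 tested HIF genes in each genotype, with filled points at an adjusted p below 0.05. Egln1, Egln3 and Vegfa are filled in all 4 genotypes. Hif1a, Bnip3 and Ankrd37 are filled in DKD, at 0.45, 0.89 and 1.27, and not in the other genotypes. The difference between the DKD and Control effects passed for Bnip3 (adjusted p = 0.0405), but not for Hif1a (0.229) or Ankrd37 (0.405). For Bnip3 it passed in 10 of 22 alternatives. The DKD minus Control differences cross the division of the libraries given in the text.

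Ankrd37, a small ankyrin-repeat protein gene induced by HIF-1 (ENSMUSG00000050914.16, chr8:45996902-46005707, minus strand), was the least abundant of the tested HIF genes, with 459 counts in all. In DKD it was 1.72, 3.20, 1.85 and 3.34 CPM at basal and 7.07, 6.58 and 5.53 CPM with insulin, without overlap. The log2 fold change was 1.27 (SE 0.30, adjusted p = 0.00282). In the other genotypes the insulin effect was 0.52 to 0.62 with SE of 0.25 to 0.30, and none passed the threshold, although that of FoxK2 KD was 0.72 with an adjusted p of 0.0465 without FoxK2 KD insulin replicate 1, and 0.35 with an adjusted p of 0.358 without FoxK2 KD insulin replicate 4. The difference between the DKD and Control effects was 0.75 (SE 0.42, 95% interval -0.11 to 1.62, adjusted p = 0.405). Ankrd37 shares 349 exon bases with Lrp2bp (216 counts) and 57 with Ufsp2 (2339 counts) on the opposite strand, and since the strand setting of the counting is not given in the sources used here, its counts are uncertain.

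Ndrg1, a stress-response gene induced by hypoxia and differentiation (ENSMUSG00000005125.12, chr15:66929318-66969640, minus strand), fell with insulin in Control and FoxK1 KD cells. It was 343, 323, 342 and 318 CPM in Control basal and 288, 262 and 252 CPM in Control insulin, and 311, 270.3, 336 and 283 CPM in FoxK1 KD basal and 224, 216, 219 and 228 CPM in FoxK1 KD insulin. Neither pair of groups overlaps. The log2 fold changes were -0.31 (SE 0.08, adjusted p = 0.00289) and -0.44 (SE 0.07, adjusted p = 2.0e-05), against -0.06 in FoxK2 KD (adjusted p = 0.565) and -0.18 in DKD (adjusted p = 0.108). The Control call was lost with only the groups compared (-0.30, adjusted p = 0.0913). After insulin it was lower in FoxK1 KD than in Control (log2 fold change -0.27, SE 0.08, adjusted p = 0.0418), a call that was lost when any 1 of the libraries compared other than Control insulin replicate 3 was left out (-0.30 to -0.21, adjusted p from 0.0583 to 0.216). It was also lost with the replicate block (-0.26, adjusted p = 0.0706), with every gene of at least 1 count kept (-0.29, 0.123) and with only the groups compared (-0.27, 0.0799).

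Adm, the vasodilator peptide adrenomedullin (ENSMUSG00000030790.15, chr7:110627661-110629820, plus strand), lay between 0.235 and 2.71 CPM in the 30 libraries. Kept in a fit without the count filter, its insulin effect in Control was 1.11 (SE 0.69, adjusted p = 0.402), and none of its 13 comparisons passed, so that changes of this size were not detectable at this depth. Per kilobase of exon, the mean level over all libraries was 44.3 CPM for Ndrg1, 37.6 for Hif1a, 34.0 for Egln1, 16.7 for Bnip3, 9.74 for Egln3, 7.84 for Vegfa, 7.62 for Arnt, 3.80 for Epas1, 2.77 for Ankrd37 and 0.615 for Adm. Between Hif1a and Epas1, Hif1a was therefore the more abundant transcript in these cells. Hif3a, on the list of regulators and partners described below, lay at 57.0 to 105 CPM and was not put on this scale. Between the highest and the lowest group mean, Vegfa ranged most among the tested genes, by 3.49-fold, followed by Egln3 at 2.77-fold, and Arnt ranged least, by 1.29-fold.

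Across the 9 tested HIF genes, insulin raised 4 and lowered 2 in Control, where 12.4% of all tested genes rose and 13.1% fell. In FoxK1 KD it raised 3 and lowered 2 (16.2% and 15.4% of all genes), in FoxK2 KD it raised 4 and lowered 1 (14.4% and 13.7%), and in DKD it raised 7 and lowered 0 (8.31% and 7.99%). The median log2 fold change of the HIF genes was 0.37, 0.29, 0.43 and 0.45 in these genotypes, beside -0.01 to 0.01 for all tested genes. In DKD the other 2 genes, Arnt and Ndrg1, stood at -0.22 and -0.18 without passing.

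The 3 knockdowns were compared with the same Control libraries. Each basal comparison also shares its knockdown libraries with the insulin effect of that genotype. At basal, FoxK1 KD lowered 2 of the 9 genes, Vegfa and Bnip3, and raised 0, beside 4.71% lower and 3.39% higher among all genes. Without Control basal replicate 1, 188 genes were lower and 220 higher of 11356, and with only the groups compared 15 were lower and 31 higher of 10801. The first of these kept the call of Vegfa and lost that of Bnip3, and the second lost both. DKD lowered 3, Hif1a, Vegfa and Bnip3, and raised 0, beside 10.8% and 10.3%. In FoxK2 KD no HIF gene was called by edgeR, DESeq2 or limma-voom, 1 had an unadjusted p below 0.05, and 0.378% of all genes were called. DESeq2 gave an adjusted p to 8723 genes there, and a gene without one could not be called. After insulin 2 of the 9 genes, Egln3 and Ndrg1, were lower in FoxK1 KD, where 3.59% of all genes were called in either direction. No HIF gene was called after insulin in FoxK2 KD (0.0264% of all genes) or DKD (1.21%) by any of these tools, with 1 at an unadjusted p below 0.05 in each. In these comparisons DESeq2 gave an adjusted p to 8723 genes for FoxK2 KD and 10926 for DKD. The insulin effects of FoxK1 KD and FoxK2 KD differed from Control at no HIF gene and at 0% of all genes in both by edgeR with the main count filter and by limma-voom, with 3 and 1 HIF genes, and 1519 and 625 genes in all, at an unadjusted p below 0.05. DESeq2 called 24 genes for FoxK1 KD and 0 for FoxK2 KD, no HIF gene among them. For FoxK1 KD it gave an adjusted p to only 2993 genes, against 11367 for FoxK2 KD. A HIF gene without an adjusted p could not be called, so DESeq2 cannot decide for such a gene. With every gene of at least 1 count kept, edgeR called 174 genes for FoxK1 KD, Vegfa among them, and 31 for FoxK2 KD, and without Control basal replicate 2 it called 25 for FoxK1 KD. For DKD, 1 of the 9, Bnip3, passed, beside 1.54% of all genes. This DKD comparison crosses the division of the libraries, unlike those of FoxK1 KD and FoxK2 KD.

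**Figure D3:**
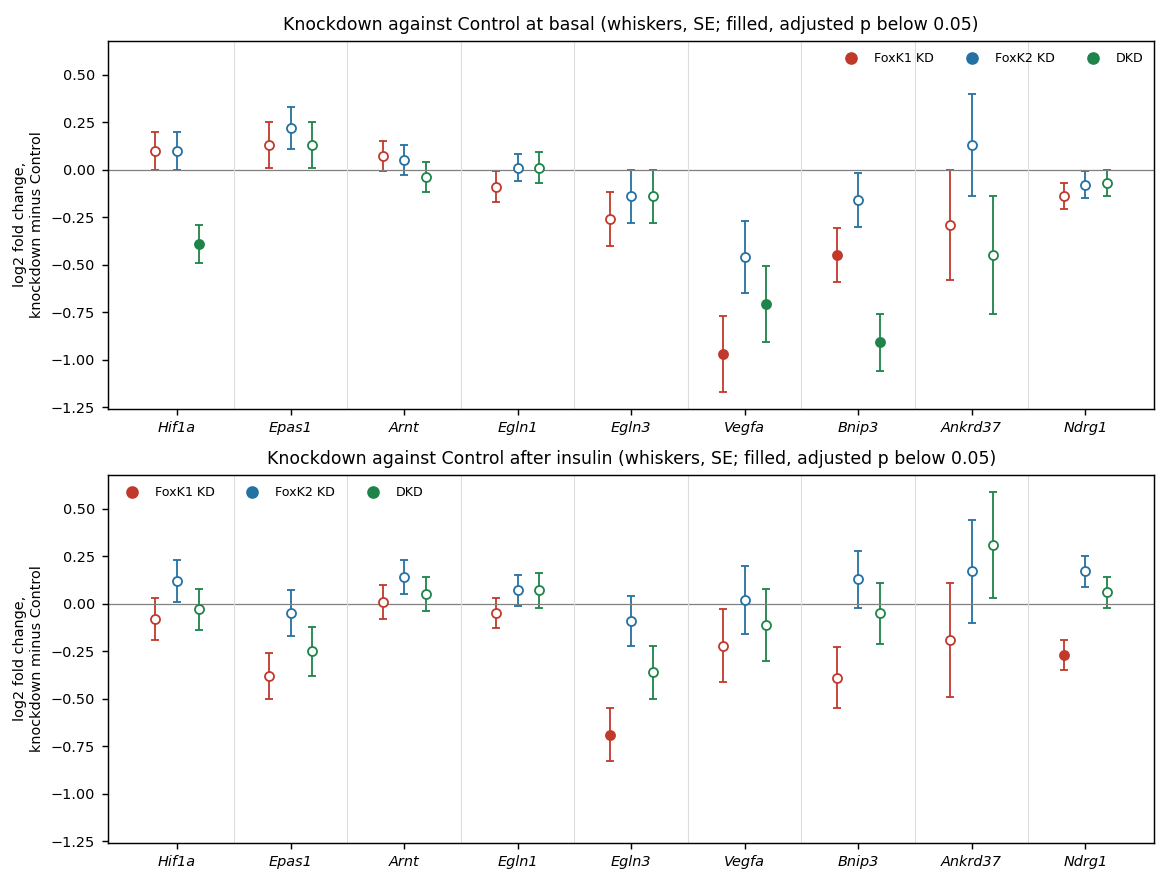
Log2 fold change (knockdown minus Control) ± SE of the 9 tested HIF genes at basal (top) and after insulin (bottom), with filled points at an adjusted p below 0.05. At basal the filled points are Vegfa and Bnip3 in FoxK1 KD and Hif1a, Vegfa and Bnip3 in DKD, all below 0, and after insulin they are Egln3 and Ndrg1 in FoxK1 KD, at -0.69 and -0.27.

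Other genes of the pathway were described from 3 lists. Among 11 tested of 12 HIF regulators and partners, 1 passed in each insulin comparison: Cited2, an inhibitor of HIF binding to p300, fell in Control (-0.39, SE 0.10, adjusted p = 0.00552), and Elob, Hif1an and Eloc, named after their values were seen, rose by 0.80 in FoxK1 KD, 0.23 in FoxK2 KD and 0.39 in DKD. The coactivator Ep300 fell in DKD at basal (-0.40, SE 0.11, adjusted p = 0.00787) and was the only one of them called there. The medians of this list lay between -0.08 and 0.14 in the 4 insulin and 3 basal comparisons. Of all tested genes, insulin raised 12.4% and lowered 13.1% in Control, and 16.2% and 15.4% in FoxK1 KD. In FoxK2 KD the shares were 14.4% and 13.7%, and in DKD 8.31% and 7.99%. At basal 10.8% of all tested genes were lower in DKD and 10.3% higher.

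Among 16 tested of 17 glycolytic HIF targets, insulin raised 13 in Control, 15 in FoxK1 KD, 15 in FoxK2 KD and 12 in DKD. It lowered 0 in each, and the medians were 0.58, 0.63, 0.63 and 0.56. Of all tested genes it raised 12.4%, 16.2%, 14.4% and 8.31% in that order, and lowered 7.99% to 15.4%. In Control, Hk2, which traps glucose as glucose-6-phosphate, went from 15.1 to 50.1 CPM (1.74, SE 0.12, adjusted p = 6.6e-13), the glucose transporter gene Slc2a1 from 115 to 213 CPM (0.89, SE 0.12, adjusted p = 5.5e-07), and Pgam1 from 152 to 282 CPM (0.89, SE 0.11, adjusted p = 2.9e-07). At basal 12 of the 16 were lower in FoxK1 KD, with a median of -0.39 (9 and -0.36 without Control basal replicate 1, and 0 and -0.39 with only the groups compared), none was called in FoxK2 KD (edgeR, with 6 at an unadjusted p below 0.05), and 4 were lower and 1 higher in DKD, with a median of -0.19. The 4 were Pdk1 (-0.59, SE 0.09, adjusted p = 9.9e-06), Pfkp (-0.35), Pgam1 (-0.34) and Ldha (-0.30), and the 1 was Eno1 (0.30), with Ldha and Eno1 named after their values were seen. Leaving out Control basal replicate 3 or DKD basal replicate 1, 3 or 4 left 2, 2, 1 and 2 of them lower in DKD, and with GC and length offsets 7 were lower and 0 higher. Among all tested genes 4.71% were lower in FoxK1 KD, 0.378% were called in FoxK2 KD, and 10.8% were lower and 10.3% higher in DKD. Hif1a itself stood at 0.10 in FoxK1 KD and at -0.39 in DKD in these comparisons, which share the Control libraries.

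Among 24 tested of 28 other HIF targets, insulin raised 12 and lowered 4 in Control, and raised 11 and lowered 3 in FoxK1 KD. In both FoxK2 KD and DKD it raised 14 and lowered 3. The shares of all tested genes ran from 8.31% to 16.2% raised and from 7.99% to 15.4% lowered. P4ha2, a collagen prolyl hydroxylase, went from 25.3 to 50.4 CPM in Control (1.01, SE 0.14, adjusted p = 9.4e-07), and the mitochondrial gene Fam162a went from 8.95 to 17.2 CPM (0.93, SE 0.18, adjusted p = 1.9e-04). The vasoconstrictor gene Edn1 fell in Control from 12.7 to 4.44 CPM (-1.48, SE 0.23, adjusted p = 9.0e-06) and in the other genotypes, at -1.20, -0.80 and -1.26. In DKD at basal 4 of the 24 were lower and 2 higher, among them Tfrc, the transferrin receptor (-0.67, SE 0.08, adjusted p = 1.0e-07), Stc2 (0.66, SE 0.12, adjusted p = 2.7e-04) and Angptl4 (0.40, SE 0.14, adjusted p = 0.0367). In FoxK1 KD at basal 5 were lower and 0 higher, or 3 and 1 without Control basal replicate 1. These numbers were 7 and 3 without Control basal replicate 2, and 0 and 0 with only the groups compared. Of all tested genes 4.71% were lower and 3.39% higher in FoxK1 KD at basal, and 10.8% and 10.3% in DKD.

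**Figure D4:**
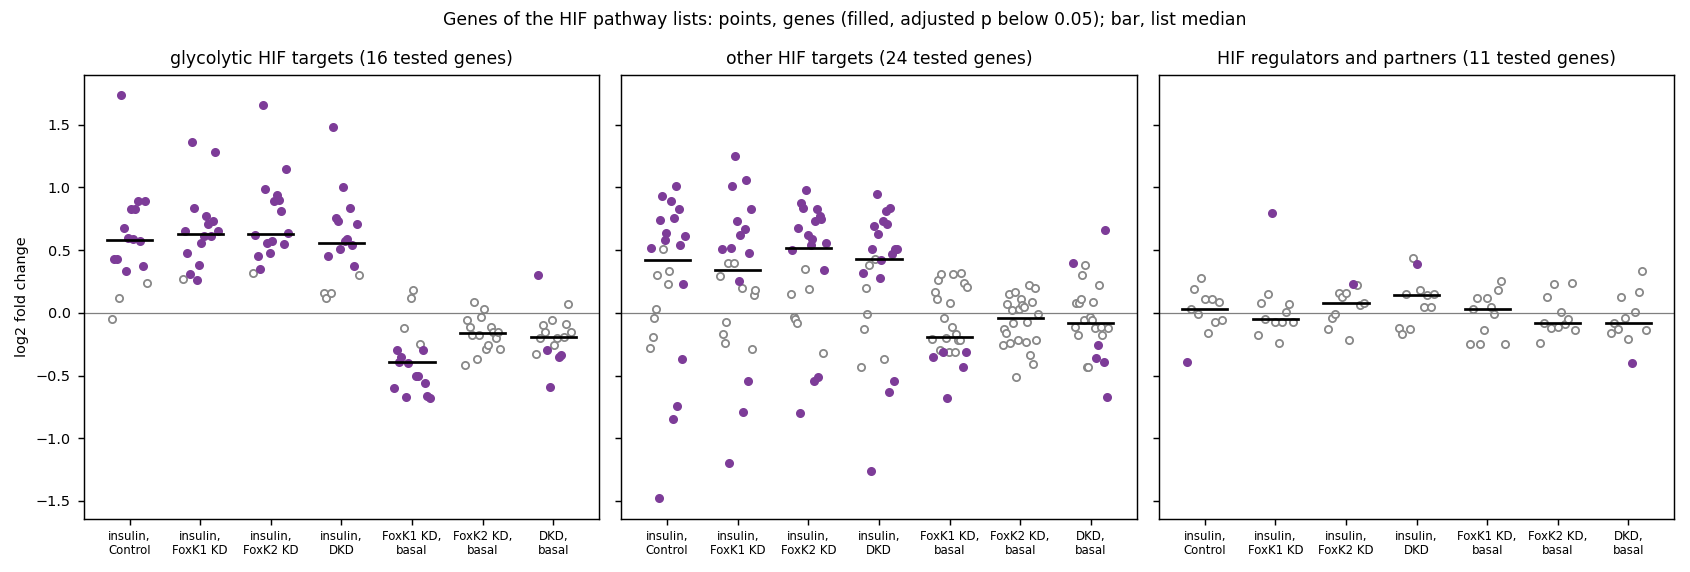
Log2 fold changes of the tested genes of 3 HIF pathway lists in the 4 insulin effects and the 3 basal knockdown comparisons, with each gene as a point (filled at an adjusted p below 0.05) and the list median as a bar. The glycolytic targets have medians of 0.56 to 0.63 with insulin and -0.39 in FoxK1 KD at basal, while those of the regulators lie between -0.08 and 0.14.

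By the Pearson correlation of the 8 group means of log2 CPM over 11260 genes, the 5 transcripts most like Hif1a had values of at least 0.947, led by Usp15 and Magt1 (0.958 each) and Slc5a3 (0.957). The 5 most like Vegfa had values of at least 0.992, led by Ostc (0.995), Inpp5j (0.994) and Higd1a (0.993), the last of which is on the list of other HIF targets. The group means share their libraries and 8 points are few, so these values are descriptions.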

How the data were processed

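RNA from 30 AML12 libraries had been prepared with a poly(A) kit and sequenced on an Illumina platform. The authors deposited raw read counts per gene, and the submitters' processing notes name CASAVA 1.8, STAR 2.4.2a, featureCounts and the build GRCm38.p4; the annotation and strand setting are not given in the sources used here. Groups came from the sample labels. Gene names and exons came from GENCODE M21 (48435 of 49089 identifiers matched), and promoter sequences from RefSeq (GRCm38.p6, 8 of 10 genes). The 10 genes, the pathway lists and the tests were chosen with earlier results of these data known.

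Genes were filtered with filterByExpr, scaled by the trimmed mean of M values and fitted in edgeR 4.0.16 (R 4.3.3) with 1 coefficient per group over all 30 libraries. Quasi-likelihood F tests on 13 contrasts were adjusted over 11368 genes by Benjamini-Hochberg. The threshold of 0.05 is stricter than the false discovery rate of 0.25 in the study's limma analysis, because single genes are described. The fit was tested on simulated data. Alternatives were other count filters, limma-voom (limma 3.58.1), DESeq2 1.42.0, GC and length offsets, a replicate block, only the groups compared, the study's threshold and each library left out. Recounting the pathway lists under them was chosen after seeing the data. Named genes were the 10 HIF genes, Foxk1 and Foxk2, per pathway list up to 3 called genes with the largest change for insulin in Control and for DKD at basal, and the 5 genes most like Hif1a or Vegfa. Elob, Hif1an, Eloc, Ldha, Eno1 and the cell type markers fall outside this rule. Counting error limits low genes, and in all 42 pairs of libraries of a group the counts differed by more than sampling noise (chi-square at least 1.70 times its degrees of freedom).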

Additional observations from a re-analysis of the deposited data

Results flagged for a closer look

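In 60 groups of 4 libraries across the 10 HIF genes, 3 single libraries stood apart from their group by Dixon's gap test, which flags about 1 in 20 groups by chance. Egln3 in FoxK1 KD basal replicate 4 was 13.1 CPM against 16.2 to 16.7 CPM in the others (gap over range 0.853). Vegfa in FoxK1 KD basal replicate 3 was 12.9 CPM against 15.2 to 15.6 CPM (0.839). Bnip3 in FoxK2 KD insulin replicate 2 was 67.9 CPM against 40.1 to 43.8 CPM (0.869). The insulin effect on Bnip3 differed between DKD and Control by 0.86 on the log2 scale in the test of the difference itself (adjusted p = 0.0405), and this call passed in 10 of 22 alternatives. That difference crosses the division of the libraries given in the results and cannot be told apart from it. The causes were not tested.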

How the results depend on the processing

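Of 1984 alternative log2 fold changes of the 9 HIF genes, 1920 kept their side of the threshold, 53 were called only in the main analysis, 11 only in the alternative, and none that was called changed sign, while 76 that were called in neither did. In some comparisons DESeq2 gave no adjusted p to part of the genes. A HIF gene without one was counted as not called, so the 1920 may include values that could not be called. With only the groups compared, the number of HIF genes called was 2 of 9 for insulin in Control, 0 for FoxK1 KD at basal, 1 for FoxK1 KD after insulin and 0 for the DKD difference in insulin effect; fewer libraries enter that fit. With the study's threshold, which for insulin also asks for a fold above 1.5, it was 3 for insulin in Control, 3 in FoxK1 KD, 2 in FoxK2 KD and 4 in DKD, and 4 for FoxK1 KD and 1 for DKD after insulin. With genes of at least 1 count kept, it was 1 for FoxK1 KD after insulin and 1 for the FoxK1 KD difference in insulin effect. With GC and length offsets it was 0 for the DKD difference in insulin effect, and 0 with the replicate block added. Leaving out 1 library gave 1 to 2 genes for FoxK1 KD at basal, 0 to 2 for FoxK1 KD after insulin and 0 to 2 for the DKD difference. Unless stated above, the cause was not tested. The replicate numbers did not pair the libraries (mean correlation of deviations -0.013 over 99 same-number pairs, from -0.21 to 0.20, against 0.0043 over 294 others); with the replicate block 1 gene was called for FoxK1 KD after insulin and the other counts were the same as without it. Depth limits Adm and Ankrd37 most, with 104 and 459 counts.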
